A study of Homo sapiens with 21 samples.

Results

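The measurements below are for 10 genes of secreted matrix glycoproteins in NLF, a human neuroblastoma-derived cell line, after CRISPR targeting of YAP1 and after treatment with trametinib. The genes are POSTN, TGFBI, FN1, FBN1, FBN2, SPARC, THBS1, TNC, FBLN1 and FBLN2, taken by symbol from the deposited table of 57820 genes. Each symbol matched 1 entry, so all 10 genes were found. Of these, 9 were among the 16194 genes tested, which needed an FPKM (fragments scaled to transcript length and to the number of mapped fragments) of at least 1 in at least 3 of 21 libraries. THBS1 did not pass that filter, with a highest value of 0.904, and is given as levels only.

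Matrix glycoproteins are secreted proteins that assemble the meshwork around cells and carry binding sites for integrins and growth factors. Fibronectin and the fibrillins form fibrils and microfibrils. Periostin, TGFBI, SPARC, thrombospondin-1 and tenascin-C are matricellular proteins, which modulate how cells attach rather than bear load, and the fibulins link the fibrils to basement membranes and elastic fibres. YAP1 is a transcriptional coactivator of the Hippo pathway that acts through TEAD factors, and matrix and matricellular genes are among those it is known to regulate. In neuroblastoma, high expression of matrix genes is a known feature of the mesenchymal cell state.

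The study held 21 libraries of total RNA in 7 groups of 3. The parental NLF line carried no guide and received DMSO. The sgCON line was made with a lentivirus carrying Cas9 and a scrambled guide, and the YAPKO1 and YAPKO2 lines are labelled as YAP1 knockouts and were made with a different YAP1 guide each. These last 3 lines were each treated with DMSO, the solvent, or with 20 nM trametinib, a MEK inhibitor, for 72 hours. The sample labels give DMSO at 0.01% and the series text at 0.1%. Whether a knockout line was 1 clone or a pool is not given in the sources used here, nor is whether the 3 libraries of a group came from separate cultures, so the p-values below measure only the spread between these libraries, which may be technical. The 3 libraries named only for DMSO were taken as the parental line, because the parental samples alone carry no guide.

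The guides are shown because they are what separates the control line from the knockout lines, and the knockout lines from each other. They are printed 5′ to 3′ in lower case, with the PAM, the triplet that Cas9 needs beside its site, in capitals.
sgCON guide: gcactcacatcgctacatca
YAPKO1 site: cgccgtcatgaaccccaagaCGG
YAPKO2 site: gtgcacgatctgatgcccggCGG
In GRCh38, the YAPKO1 site lies at chr11:102111058-102111077 on the plus strand and the YAPKO2 site at chr11:102110997-102111016 on the minus strand. Both sites are in the coding part of exon 1 of YAP1, in 7 of its 11 GENCODE transcripts. The scrambled guide matched none of the 11.

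YAP1 RNA itself was lower in both knockout lines. The FPKM values, divided by a scaling factor per library, were 29.4, 32.8 and 33.4 in the parental line and 25, 24.2 and 27.7 in sgCON with DMSO. YAPKO1 with DMSO gave 13.2, 12.9 and 9.06, and YAPKO2 with DMSO gave 3.17, 2.69 and 2.81. The 3 lines did not overlap, and YAP1 was 2.19-fold lower in YAPKO1 and 8.87-fold lower in YAPKO2 than in sgCON (adjusted p = 0.00365 and 5.04e-08, limma). Edits that shift the reading frame need not lower RNA, and protein was not analysed here, so these values describe transcripts only. With trametinib, YAP1 was 22.7, 24.5 and 22.7 in sgCON, 12.5, 11.9 and 10.1 in YAPKO1, and 2.73, 1.16 and 3.69 in YAPKO2.

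Several facts about the whole series bear on the values. Relative sequencing depth, read from the steps between low FPKM values, spanned 0.761 to 1.66 times that of the first parental library, and read counts were not used here. Libraries differed in how strongly GC-rich transcripts (GC of at least 56.6%) stood above GC-poor ones (at most 41.7%): this trend ran from −0.60 to 1.34 on the log2 scale. It was −0.60 to −0.55 in the parental libraries, −0.48 to −0.38 in sgCON with DMSO and 0.09 to 0.62 in YAPKO2 with DMSO, so it moved with these groups. It also varied within groups, from −0.40 to 0.68 in YAPKO1 with DMSO and from −0.25 to 1.34 in YAPKO2 with trametinib. The highest values were 0.68 in library 3 of YAPKO1 with DMSO, 0.70 and 1.34 in libraries 1 and 2 of YAPKO2 with trametinib, and 0.62 in library 2 of YAPKO2 with DMSO. Its part in the results was not tested beyond the GC-corrected values given where they change a call.

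Markers of both neuroblastoma states were present, apart from some defining ones. HAND2, a transcription factor of the adrenergic neuroblastoma state, was between 60.9 and 100 FPKM in every library. The noradrenaline enzymes TH and DBH were low, at no more than 0.511 and 7.19. Of 10 adrenergic markers, 9 were tested. The summed level of all 10 was 284 to 304 in the parental line, 338 to 356 in sgCON, 466 to 614 in YAPKO1 and 513 to 566 in YAPKO2, all with DMSO. MYCN made up much of the difference between lines. It was 29.1 to 35.4 in the parental line, 92.3 to 98.9 in sgCON, 179 to 244 in YAPKO1 and 117 to 131 in YAPKO2. In the mesenchymal-state list 8 of 10 markers were tested. The summed level of all 10 was 1275 to 1335 in the parental line. Most of that sum was VIM, an intermediate filament gene expressed by many cell types, at 1155 to 1219. TWIST1 was between 49.9 and 123 across all libraries, whereas TWIST2 was at 0 in every library and CD44 did not exceed 0.146. PRRX1, from the same list, set YAPKO1 apart. It was 8.8 to 12.9 in YAPKO1 with DMSO, and with DMSO at most 0.0595 in the parental line, 0.548 in sgCON and 0.4 in YAPKO2. Fibroblast markers matter here because fibroblasts make the same matrix genes, and 9 of 10 were tested. The summed level of all 10 was 925 to 989 in the parental line, 477 to 555 in sgCON, 242 to 513 in YAPKO1 and 404 to 634 in YAPKO2 with DMSO. FAP, a marker of activated fibroblasts, did not exceed 0.293 in any library. The part of any admixed cells in the results was not tested.

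Promoters are shown for POSTN, TGFBI, FBN1 and SPARC, the members called lower in both knockout lines with DMSO. RefSeq (GRCh38.p14) gave a promoter window for all 10 members, 11 windows in all because FBLN2 has 2 starts. Each line is the 250 bases before the annotated start, 5′ to 3′ on the gene's strand, and capitals mark matches on either strand to GGAATG (the core bound by TEAD factors), TGANTCA (AP-1) or TATAAA (the TATA box). The windows are chr13:37598769-37599018 (minus) for POSTN, chr5:136028738-136028987 (plus) for TGFBI, chr15:48644971-48645220 (minus) for FBN1 and chr5:151686916-151687165 (minus) for SPARC.
POSTN: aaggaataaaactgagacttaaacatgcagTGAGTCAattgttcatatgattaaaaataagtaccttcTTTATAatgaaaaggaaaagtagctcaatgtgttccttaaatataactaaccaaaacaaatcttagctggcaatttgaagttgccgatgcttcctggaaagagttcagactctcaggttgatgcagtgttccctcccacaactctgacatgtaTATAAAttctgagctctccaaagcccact
TGFBI: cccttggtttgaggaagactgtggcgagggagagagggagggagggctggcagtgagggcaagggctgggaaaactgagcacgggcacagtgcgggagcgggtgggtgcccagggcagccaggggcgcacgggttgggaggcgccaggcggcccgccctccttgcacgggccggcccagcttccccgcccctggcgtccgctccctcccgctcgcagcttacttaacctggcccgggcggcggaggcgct
FBN1: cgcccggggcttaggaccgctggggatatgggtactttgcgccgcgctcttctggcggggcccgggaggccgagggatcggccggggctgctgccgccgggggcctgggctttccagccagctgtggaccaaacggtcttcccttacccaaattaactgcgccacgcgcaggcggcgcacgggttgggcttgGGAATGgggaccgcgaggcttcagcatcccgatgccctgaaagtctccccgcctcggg
SPARC: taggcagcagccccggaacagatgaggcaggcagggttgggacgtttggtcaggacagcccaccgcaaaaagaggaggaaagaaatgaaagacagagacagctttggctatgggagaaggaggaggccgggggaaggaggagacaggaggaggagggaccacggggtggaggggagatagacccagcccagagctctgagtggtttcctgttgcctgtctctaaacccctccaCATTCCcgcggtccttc
The POSTN window held an AP-1 match 220 to 214 bases before the start, with the letters TGAGTCA, and TATA box matches at 29 to 24 and 182 to 177 bases. FBN1 held a TEAD core 58 to 53 bases before its start and SPARC one 17 to 12 bases before its start, while TGFBI held none of the motifs. Among all 10 members, 3 held the TEAD core (THBS1 is the third, at 46 to 41 bases), 1 the AP-1 motif and 1 the TATA box. Across all 35116 windows of this length the shares were 11.9%, 6.57% and 10.7%. The GC content of the 4 windows was 36.4% for POSTN, 59.2% for SPARC, 69.6% for FBN1 and 72.8% for TGFBI. None of the matches overlaps another, and a match is a description of the sequence, not evidence of binding.

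SPARC, FN1 and FBLN1 had high levels per length in every group, SPARC reaching 197 FPKM in a parental library and none of the 3 falling below 30.7 in any library. POSTN ran from 0.0884 to 70.3, and in the parental line its level lay above that of FBLN1. TGFBI did not exceed 1.79 outside the parental line, and THBS1 did not exceed 0.904 in any library. Summed over the 10 genes, the level was 433 to 460 FPKM in the parental libraries, 358 to 367 in sgCON with DMSO, 231 to 277 in YAPKO1 with DMSO and 203 to 227 in YAPKO2 with DMSO. SPARC made up the largest share of that sum in sgCON with DMSO, 46.9% to 48.7%, whereas FBLN1 did in YAPKO2 with DMSO, at 30.0% to 34.9%, and FN1 in YAPKO1 with trametinib, at 39.4% to 41.0%.

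**Figure D1:**
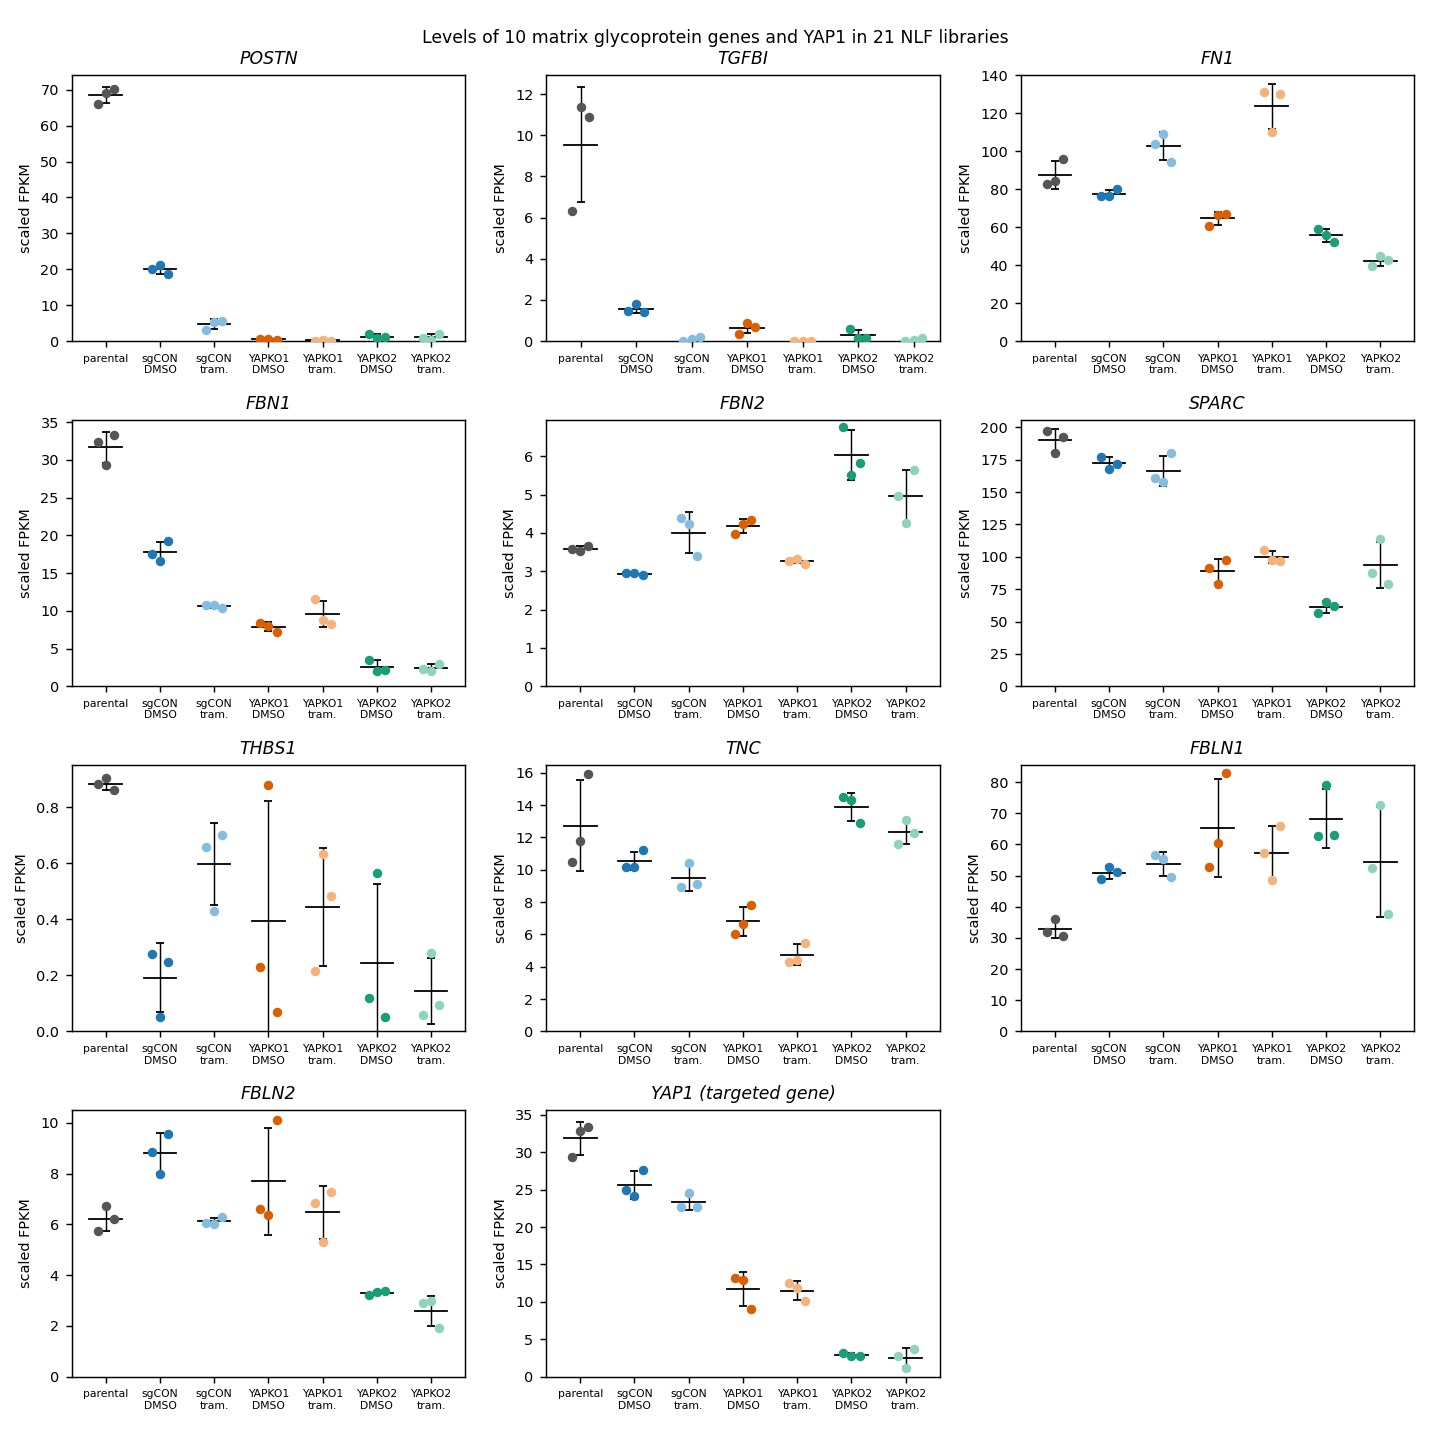
Scaled FPKM (linear axis from 0) of the 10 genes and of YAP1 in each of 21 libraries, 3 points per group, with the mean and SD as black bars where no library is at 0. POSTN lies at 66.0 to 70.3 in the parental libraries and at no more than 2.10 in every knockout library, while FBLN1 lies above the parental range of 30.7 to 36.1 in every other library.

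With DMSO, the knockout lines held less RNA for POSTN, TGFBI, FBN1 and SPARC than the control line, and more for FBN2. This comparison sets each knockout line against the control-guide line. Whether a difference comes from loss of YAP1 or from other differences between the lines was not tested. In YAPKO1, 1 of the 9 tested members was higher and 5 were lower, where 6.13% of all tested genes were higher and 5.77% lower. In YAPKO2, 2 were higher and 6 lower, beside 14.0% and 13% of all tested genes. TGFBI is among the lower genes in both. It reached the filter's FPKM of 1 in only 6 libraries, those of the parental line and of sgCON with DMSO. Its lower calls against those groups were thus favoured by the filter and add little to the counts. POSTN, also lower in both, reached that FPKM in 11 libraries, among them all parental and sgCON libraries and no YAPKO1 library. Its highest YAPKO2 libraries held 1.93 FPKM with DMSO and 2.10 with trametinib. No knockout group had all its libraries at that level, so the filter favoured the lower calls of POSTN too. The median log2 change of the members was −0.60 in YAPKO1 and −1.29 in YAPKO2, beside 0.00 and 0.01 over all tested genes. Both comparisons share the same 3 sgCON libraries and are not independent of each other. In bulk RNA, fewer cells that make a transcript and less RNA per cell cannot be told apart.

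POSTN encodes periostin, a secreted integrin ligand that binds collagen, fibronectin and tenascin-C. It was 20.0, 21.3 and 18.8 FPKM in sgCON with DMSO. The YAPKO1 libraries gave 0.633, 0.687 and 0.192, and the YAPKO2 libraries 1.93, 0.780 and 1.03. Every knockout library lay far below the lowest control library. POSTN fell by 4.39 ± 0.34 (SE) on the log2 scale in YAPKO1 and by 3.61 ± 0.34 in YAPKO2 (adjusted p = 1.22e-07 and 5.2e-07), or 39.8-fold and 16.1-fold in means. The log2 scale here is log2(scaled FPKM + 0.5), and the added 0.5 understates changes of values this low.

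TGFBI, a matrix protein of the same fasciclin family named for its induction by TGF-beta, was far lower in level throughout. It measured 1.45, 1.79 and 1.43 FPKM in sgCON, 0.364, 0.869 and 0.679 in YAPKO1, and 0.570, 0.144 and 0.135 in YAPKO2. Neither knockout line overlapped sgCON. The log2 change was −0.88 ± 0.26 in YAPKO1 (adjusted p = 0.0375) and −1.43 ± 0.26 in YAPKO2 (adjusted p = 0.000692). The YAPKO1 call was lost with a pseudocount of 0.1 (adjusted p = 0.14) and without any 1 sgCON library or without YAPKO1 library 1 or 3, where the log2 change was −0.92 to −0.69 and the adjusted p 0.0777 to 0.127.

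FBN1, the main fibrillin of microfibrils, was 17.5, 16.6 and 19.3 FPKM in sgCON, 8.42, 8 and 7.23 in YAPKO1 and 3.54, 2.02 and 2.13 in YAPKO2. The 3 lines formed separate ranges. FBN1 fell by 1.13 ± 0.17 on the log2 scale in YAPKO1 (2.26-fold, adjusted p = 0.000185) and by 2.61 ± 0.17 in YAPKO2 (6.94-fold, adjusted p = 3.92e-09). Its relative FBN2, the fibrillin known mainly from developing tissue, moved the other way against sgCON, whose DMSO mean of 2.93 was the lowest of the 7 groups. FBN2 measured 2.95, 2.95 and 2.89 FPKM in sgCON, 3.98, 4.24 and 4.33 in YAPKO1 and 6.76, 5.52 and 5.83 in YAPKO2, again without overlap. It was higher by 0.45 ± 0.12 on the log2 scale in YAPKO1 (adjusted p = 0.0191) and by 0.93 ± 0.12 in YAPKO2 (adjusted p = 2.08e-05). The YAPKO1 call of FBN2 was lost without any 1 sgCON library or without YAPKO1 library 2 or 3, at 0.43 to 0.45 with an adjusted p of 0.0535 to 0.0636.

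SPARC, a collagen-binding matricellular protein and the most abundant member in sgCON, was 177, 168 and 172 FPKM there. YAPKO1 gave 91.1, 78.9 and 97.2 and YAPKO2 gave 56.6, 65.3 and 62.2, so each knockout line lay wholly below the control. The log2 changes were −0.95 ± 0.11 and −1.48 ± 0.11, which are 1.94-fold and 2.81-fold lower (adjusted p = 1.79e-05 and 3.98e-08). FN1, fibronectin, the scaffold on which many of the other members assemble, moved less. It measured 76.3, 76.4 and 80.1 in sgCON, 60.8, 66.6 and 66.8 in YAPKO1 and 59.0, 55.6 and 52.2 in YAPKO2. The YAPKO2 difference of −0.48 ± 0.09 on the log2 scale passed the test (adjusted p = 0.00101), and the YAPKO1 difference of −0.26 ± 0.09 did not (adjusted p = 0.0738), although the libraries did not overlap. With GC-corrected values the YAPKO2 call of FN1 was lost, at −0.25 with an adjusted p of 0.181.

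Tenascin-C, a large anti-adhesive protein of developing and wounded tissue, differed in direction between the knockout lines. TNC was 10.2, 10.2 and 11.2 FPKM in sgCON, 6.02, 6.63 and 7.80 in YAPKO1 and 14.5, 14.3 and 12.9 in YAPKO2. Thus YAPKO1 lay below and YAPKO2 above the control range. The log2 change was −0.60 ± 0.14 in YAPKO1 (adjusted p = 0.00836) and 0.38 ± 0.14 in YAPKO2 (adjusted p = 0.0495). The YAPKO2 call stood just inside the threshold and was lost without any 1 of its 6 libraries (0.35 to 0.43, adjusted p 0.0627 to 0.14), and with GC correction it became 0.18 (adjusted p = 0.304).

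The fibulins also parted. FBLN2 measured 8.87, 7.99 and 9.56 FPKM in sgCON, 6.60, 6.37 and 10.1 in YAPKO1 and 3.22, 3.32 and 3.37 in YAPKO2. Only the YAPKO2 libraries were wholly below the control, with a log2 change of −1.29 ± 0.17 (2.67-fold lower, adjusted p = 2.54e-05), whereas YAPKO1 gave −0.21 ± 0.17 (adjusted p = 0.444; with GC correction −0.39, adjusted p = 0.00877). FBLN1 was 48.8, 52.8 and 51.3 in sgCON, 52.7, 60.4 and 82.9 in YAPKO1 and 62.6, 79.2 and 63.0 in YAPKO2. Its log2 changes of 0.33 ± 0.19 and 0.41 ± 0.19 did not pass (adjusted p = 0.287 and 0.124). In each knockout line the library highest in FBLN1 was the one with the highest GC trend of that group. In sgCON it was library 2, whose GC trend of −0.48 was the lowest of that group. FBLN1 transcripts are GC-rich, at 57.0%, and whether the GC trend has a part in these values was not tested. THBS1, thrombospondin-1, the untested member and an activator of latent TGF-beta, was 0.275, 0.0504 and 0.249 FPKM in sgCON, 0.230, 0.879 and 0.0709 in YAPKO1 and 0.120, 0.565 and 0.0520 in YAPKO2, ranges that overlapped.

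**Figure D2:**
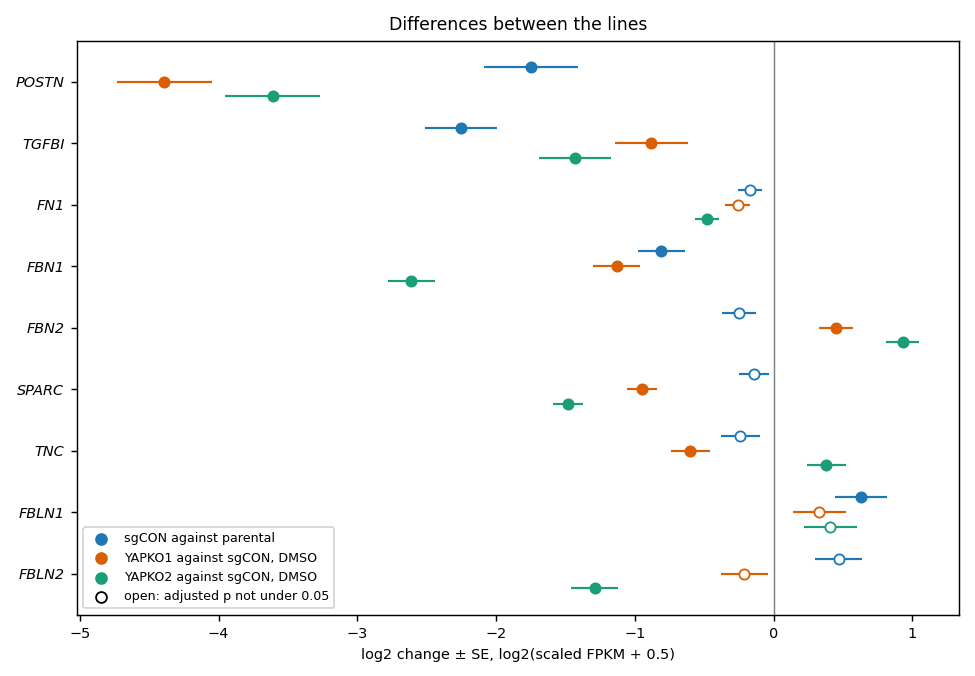
Log2 change with its SE (horizontal axis, log2(scaled FPKM + 0.5)) of the 9 tested genes for sgCON against parental and for each knockout line against sgCON, all with DMSO, from 3 libraries a group; open points did not pass the adjusted p of 0.05. POSTN lies at −4.39 and −3.61 in the knockout lines, and TNC lies at −0.60 in YAPKO1 and 0.38 in YAPKO2.

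Set against each other with DMSO, the knockout lines differed in 5 members. YAPKO2 was higher than YAPKO1 in 2 and lower in 3 of 9, where 3.71% of all tested genes were higher and 3.22% lower. FBN1 was 3.07-fold, FBLN2 2.33-fold and SPARC 1.45-fold lower in YAPKO2 (log2 changes −1.48 ± 0.17, −1.08 ± 0.17 and −0.53 ± 0.11, adjusted p = 1.31e-05, 0.000458 and 0.00636). TNC was 2.04-fold and FBN2 1.44-fold higher (log2 changes 0.98 ± 0.14 and 0.48 ± 0.12, adjusted p = 0.000167 and 0.018). POSTN and TGFBI gave 0.78 ± 0.34 and −0.56 ± 0.26, which did not pass (adjusted p = 0.213 and 0.265). With GC correction POSTN passed, at 0.96 (adjusted p = 0.00551). For FBN2 the call was lost without YAPKO1 library 1 (0.45, adjusted p = 0.0754), YAPKO1 library 2 (0.49, adjusted p = 0.0522) or YAPKO2 library 1 (0.40, adjusted p = 0.0998). YAP1 RNA was also 4.05-fold lower in YAPKO2 than in YAPKO1, and whether the members follow it was not tested.

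Trametinib lowered POSTN, TGFBI and FBN1 and raised FN1 in the control line. This comparison asks what MEK inhibition did to the same genes. In sgCON, 1 of 9 tested members was higher and 3 were lower with trametinib, beside 2.26% and 2.91% of all tested genes. YAPKO1 had 1 higher and 2 lower (background 3.97% and 3.85%), and YAPKO2 had 1 higher and 1 lower (background 8.55% and 11.4%). TGFBI, among the lower genes in sgCON and YAPKO1, passed the filter only through the parental and sgCON DMSO libraries. The members' median log2 changes were −0.15, −0.21 and −0.27, with 0.00, −0.01 and −0.01 over all tested genes. The split of all called genes depends on the scaling: in sgCON 43.7% of them were higher here, 53.6% without scaling and 55.0% with the authors' calibration alone. For YAPKO1 the share was 50.7% here and 62.3% without scaling, and for YAPKO2 it was 42.9% and 56.4%.

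In sgCON, POSTN dropped from 20.0, 21.3 and 18.8 FPKM with DMSO to 3.13, 5.37 and 5.66 with trametinib. All 3 treated libraries were below all 3 controls, at 4.25-fold lower, and the log2 change was −2.01 ± 0.34 (adjusted p = 0.00134). In YAPKO1 the treated libraries held 0.0884, 0.326 and 0.0947, against 0.633, 0.687 and 0.192 with DMSO, and in YAPKO2 they held 0.933, 0.317 and 2.10, against 1.93, 0.780 and 1.03. These ranges overlapped and neither change passed, at −0.56 ± 0.34 and −0.21 ± 0.34 (adjusted p = 0.373 and 0.718).

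TGFBI was listed at 0, 0.117 and 0.202 FPKM in sgCON with trametinib, at 0 in all 3 YAPKO1 libraries with trametinib, and at 0, 0.0297 and 0.160 in YAPKO2 with trametinib. An entry of 0 in a table without counts cannot be told from a value too low to estimate, so no fold change is given. On the log2 scale with 0.5 added, the change was −1.77 ± 0.26 in sgCON (adjusted p = 0.000407), −1.16 ± 0.26 in YAPKO1 (adjusted p = 0.0107) and −0.44 ± 0.26 in YAPKO2 (adjusted p = 0.269). Without YAPKO1 DMSO library 2 the YAPKO1 change was −1.01 (adjusted p = 0.0613).

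FN1 rose with trametinib in sgCON and YAPKO1 and fell in YAPKO2. It went from 76.3, 76.4 and 80.1 FPKM with DMSO to 104, 109 and 94.5 with trametinib in sgCON, and from 60.8, 66.6 and 66.8 to 131, 110 and 130 in YAPKO1. In YAPKO2 it went from 59.0, 55.6 and 52.2 to 39.3, 44.7 and 42.6. None of the 3 pairs of ranges overlapped: FN1 was 1.32-fold higher in sgCON, 1.91-fold higher in YAPKO1 and 1.32-fold lower in YAPKO2 (log2 changes 0.39, 0.93 and −0.39, each ± 0.09, adjusted p = 0.0161, 4.82e-06 and 0.00551). The sgCON call was lost without sgCON DMSO library 1 or 2 or trametinib library 1 or 2 (0.35 to 0.38, adjusted p 0.0632 to 0.0846). With GC correction the YAPKO2 change was −0.29 (adjusted p = 0.123).

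SPARC stayed at 161, 158 and 180 FPKM in sgCON with trametinib, a range that overlapped its controls (−0.05 ± 0.11, adjusted p = 0.87). In YAPKO2 it was 87.9, 114 and 79.3 with trametinib against 56.6, 65.3 and 62.2 with DMSO. That 1.53-fold rise passed the test (0.59 ± 0.11, adjusted p = 0.00121), and the value in YAPKO1, 0.17 ± 0.11, did not (adjusted p = 0.437). The GC trend was 1.34 in the treated YAPKO2 library with the highest SPARC. The YAPKO2 rise kept its call without any 1 of its 6 libraries (0.44 to 0.70). It lost the call in a limma fit of only the groups compared (0.59, adjusted p = 0.1). Another comparison, the difference in response between YAPKO2 and sgCON, was 0.54 for SPARC (adjusted p = 0.0198) without 3 libraries of high trend. These were high in their groups: YAPKO1 DMSO 3, YAPKO2 DMSO 2 and YAPKO2 trametinib 2. YAPKO2 trametinib 1, with a trend of 0.70, stayed in that fit.

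FBN1 was 10.8, 10.7 and 10.3 FPKM in sgCON with trametinib, wholly below its DMSO libraries, and 1.68-fold lower (−0.72 ± 0.17, adjusted p = 0.0152). This call was lost without sgCON DMSO library 3 (−0.66, adjusted p = 0.0745) or trametinib library 2 or 3 (−0.73 and −0.70, adjusted p = 0.05 and 0.057). In the knockout lines FBN1 did not pass: 11.5, 8.83 and 8.31 in YAPKO1 and 2.24, 2.03 and 3.01 in YAPKO2 (0.25 ± 0.17 and −0.05 ± 0.17, adjusted p = 0.43 and 0.887). FBN2 gave 4.40, 4.22 and 3.39 in sgCON with trametinib, above its controls, but at 0.38 ± 0.12 did not pass (adjusted p = 0.073). It was 3.28, 3.33 and 3.20 in treated YAPKO1 and 4.96, 4.26 and 5.63 in treated YAPKO2, with changes of −0.31 ± 0.12 and −0.27 ± 0.12 that did not pass either (adjusted p = 0.127 and 0.129).

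TNC fell with trametinib in YAPKO1, from 6.02, 6.63 and 7.80 FPKM to 4.30, 4.42 and 5.49 (−0.48 ± 0.14, adjusted p = 0.0393). That call was lost without YAPKO1 DMSO library 2 or 3 or trametinib library 1 or 2 (−0.50 to −0.39, adjusted p 0.0911 to 0.144). TNC in treated sgCON was 8.94, 10.4 and 9.13 and in treated YAPKO2 11.6, 13.1 and 12.3, and neither change passed (adjusted p = 0.661 and 0.454). FBLN1 was 56.6, 55.2 and 49.5 in treated sgCON, 57.2, 48.6 and 66.0 in treated YAPKO1 and 52.4, 72.8 and 37.8 in treated YAPKO2. FBLN2 was 6.06, 6.01 and 6.29, then 6.83, 5.31 and 7.28, then 2.91, 2.97 and 1.92 in the same order. No fibulin change with trametinib passed limma's test in any of the 3 lines, although the treated sgCON and YAPKO2 libraries of FBLN2 lay below their controls (−0.49 ± 0.17 and −0.31 ± 0.17, adjusted p = 0.115 and 0.213). With GC correction FBLN2 passed in sgCON, YAPKO1 and YAPKO2, at −0.59, −0.34 and −0.47 (adjusted p = 0.000695, 0.0259 and 0.00134), and FBLN1 in YAPKO2, at −0.49 (adjusted p = 0.00161).

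THBS1 with trametinib was 0.658, 0.431 and 0.701 FPKM in sgCON, all above the 3 sgCON libraries with DMSO. It was 0.216, 0.634 and 0.483 in YAPKO1 and 0.0589, 0.278 and 0.0942 in YAPKO2, both overlapping their controls. These differences were not tested.

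**Figure D3:**
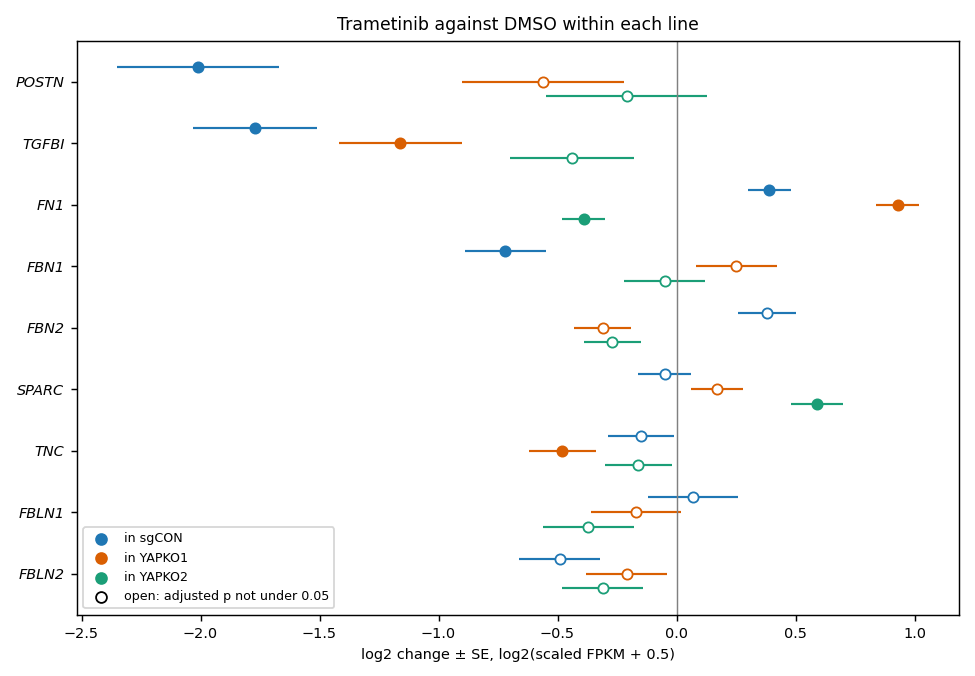
Log2 change with trametinib against DMSO, with its SE, of the 9 tested genes in sgCON, YAPKO1 and YAPKO2 (log2(scaled FPKM + 0.5), 3 libraries a group); open points did not pass the adjusted p of 0.05. FN1 lies at 0.39 and 0.93 in sgCON and YAPKO1 and at −0.39 in YAPKO2, and POSTN lies at −2.01 in sgCON and at −0.56 and −0.21, both open, in YAPKO1 and YAPKO2.

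The difference in response between lines was tested directly. For YAPKO1 minus sgCON, limma called no member in either direction, where 0.198% of all tested genes had a higher and 0.0494% a lower response, although 4 members had an unadjusted p under 0.05. These 4 were POSTN, FN1, FBN1 and FBN2, named after their values were seen, at 1.45 ± 0.48, 0.53 ± 0.13, 0.97 ± 0.23 and −0.70 ± 0.17 (adjusted p = 0.35, 0.13, 0.13 and 0.125). With GC correction POSTN passed, at 1.48 (adjusted p = 0.0233). In YAPKO1, POSTN was only 0.192 to 0.687 FPKM with DMSO and 0.0884 to 0.326 with trametinib, beside the 0.5 added before taking logs. Such low values leave little room for a further fall on this scale. For YAPKO2 minus sgCON, 3 members had a higher and 2 a lower response, beside 1.83% and 3.01% of all tested genes. FN1 differed by −0.79 ± 0.13 (adjusted p = 0.0014), a call kept without any 1 of the 12 libraries (−0.84 to −0.74) and with GC correction (−0.75, adjusted p = 0.0164). SPARC differed by 0.65 ± 0.16, FBN2 by −0.65 ± 0.17, POSTN by 1.80 ± 0.48 and TGFBI by 1.33 ± 0.37 (adjusted p = 0.0264, 0.0319, 0.0379 and 0.0477). These 4 calls were lost without any 1 sgCON DMSO library, or without sgCON trametinib library 1 or 2 (adjusted p 0.0508 to 0.122). They were also lost without YAPKO2 DMSO library 3 (adjusted p 0.0501 to 0.118). Further libraries whose removal lost a call were YAPKO2 DMSO 2 and YAPKO2 trametinib 1 and 3 for POSTN (adjusted p 0.0548 to 0.106), and YAPKO2 DMSO 1 and trametinib 1 and 2 for FBN2 (0.0582 to 0.0892). For TGFBI they were sgCON trametinib 3, YAPKO2 DMSO 2 and all 3 YAPKO2 trametinib libraries (0.0594 to 0.125), and for SPARC YAPKO2 DMSO 1 (0.0704). In YAPKO2 with DMSO, POSTN was 0.780 to 1.93 FPKM and TGFBI 0.135 to 0.570, beside the 0.5 added before taking logs. With 0.1 added instead, POSTN gave 1.75 and TGFBI 1.97, and limma called neither (adjusted p = 0.22 and 0.164). With 1 added, TGFBI lost its call (0.95, adjusted p = 0.0507) and POSTN kept it. TGFBI also passed the filter only through the parental and sgCON DMSO libraries, and POSTN only through the parental and sgCON libraries. With GC correction FBLN1 was also called for YAPKO2 minus sgCON (−0.49, adjusted p = 0.0379). The response of YAPKO2 was not tested against that of YAPKO1.

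Between the lines under trametinib, POSTN and SPARC were lower in both knockout lines. In YAPKO1, limma called 0 of 9 members higher and 3 lower than in sgCON with trametinib (4 had an unadjusted p under 0.05), beside 7.77% and 7.11% of all tested genes. In YAPKO2, 1 was higher and 5 lower, beside 17.6% and 18.5%. POSTN, among the lower genes in both lines, passed the filter only through the parental and sgCON libraries. POSTN was 27.8-fold lower in YAPKO1 and 4.22-fold lower in YAPKO2 (log2 changes −2.94 ± 0.34 and −1.81 ± 0.34, adjusted p = 1.09e-05 and 0.000527). SPARC was 1.67-fold and 1.77-fold lower (adjusted p = 0.000258 and 2.34e-05). FBN1 was 4.37-fold lower in YAPKO2 (adjusted p = 1.2e-07) but not distinguishable in YAPKO1 (−0.16 ± 0.17, adjusted p = 0.55), where its range overlapped that of sgCON. FN1 was 2.42-fold lower and FBLN2 2.35-fold lower in YAPKO2 (adjusted p = 1.48e-08 and 7.19e-05). TNC was 2.00-fold lower in YAPKO1 (adjusted p = 0.000156) and 1.3-fold higher in YAPKO2 (0.36 ± 0.14, adjusted p = 0.0488), the latter lost without any 1 of its 6 libraries (0.32 to 0.43, adjusted p 0.0508 to 0.145) and at 0.15 with GC correction (adjusted p = 0.4). GC correction brought FN1 in YAPKO1 to 0.44 (adjusted p = 0.0285) and FBLN1 in YAPKO2 to −0.32 (adjusted p = 0.0185), which were not called without it.

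The control line itself differed from the parental line, which bears on every comparison with sgCON. With DMSO, 1 member was higher and 3 were lower in sgCON, beside 7.93% and 7.82% of all tested genes. POSTN was 66.0, 69.1 and 70.3 FPKM in the parental libraries, 3.41-fold above sgCON (−1.75 ± 0.34, adjusted p = 0.00176). TGFBI was 6.33, 11.4 and 10.9, 6.14-fold above (−2.25 ± 0.26, adjusted p = 1.75e-05), and FBN1 was 32.3, 29.3 and 33.3, 1.78-fold above (−0.81 ± 0.17, adjusted p = 0.00266). None of these ranges overlapped. FBLN1 was 31.8, 36.1 and 30.7 in the parental line and 1.55-fold higher in sgCON (0.63 ± 0.19, adjusted p = 0.0347), a call lost without any 1 of the 6 libraries (0.58 to 0.70, adjusted p 0.0517 to 0.111). The same sgCON libraries serve as controls in the knockout comparisons, so the comparisons are not independent.

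Against the parental line, the knockout lines differed in more members. YAPKO1 had 1 higher and 6 lower (background 14.8% and 12.4%), and YAPKO2 had 2 higher and 6 lower (background 19.9% and 17.7%). TGFBI, counted as lower in both, passed the filter only through the parental and sgCON DMSO libraries. POSTN, also counted as lower in both, passed it only through the parental and sgCON libraries. POSTN was 136-fold lower in YAPKO1 and 54.9-fold lower in YAPKO2, TGFBI 15-fold and 33.8-fold lower, and FBN1 4.01-fold and 12.3-fold lower. FBLN1 was 1.99-fold higher in YAPKO1 and 2.08-fold higher in YAPKO2 (adjusted p = 0.00144 and 0.000524). FBN2 was called higher than in the parental line in YAPKO2 (0.67 ± 0.12, adjusted p = 0.00032) but not in YAPKO1 (0.19 ± 0.12, adjusted p = 0.238). SPARC was 197, 180 and 193 and FN1 82.6, 84.1 and 95.7 in the parental line, and neither differed from sgCON by the test (adjusted p = 0.477 and 0.248). TNC was 10.5, 11.8 and 15.9, FBN2 3.58, 3.53 and 3.66, and FBLN2 5.74, 6.72 and 6.20 there, with no call against sgCON. With GC correction FBLN2 was called against sgCON (0.36, adjusted p = 0.0105), and the call of FN1 in YAPKO1 against the parental line was lost (−0.24, adjusted p = 0.191). THBS1 was 0.881, 0.904 and 0.862, above the other groups apart from 1 YAPKO1 DMSO library at 0.879.

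Ordered by mean level over the 7 groups, POSTN ran parental, sgCON with DMSO, sgCON with trametinib, then the 4 knockout groups. The first 3 were each separate from the next group, and the knockout groups overlapped their neighbours. FBN1 ran in nearly the same order, separate as far as sgCON with DMSO, overlapping between sgCON with trametinib and the YAPKO1 groups, and lowest in both YAPKO2 groups. SPARC ran parental, then both sgCON groups, which overlapped, then YAPKO1 with trametinib, YAPKO2 with trametinib and YAPKO1 with DMSO, which overlapped, and lowest YAPKO2 with DMSO. FN1 had another order, with overlap only between sgCON with trametinib and the parental line. It was highest in YAPKO1 with trametinib at 124 ± 12 (SD, n = 3) and lowest in YAPKO2 with trametinib at 42.2 ± 2.72 (SD, n = 3).

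Other matrix glycoproteins, 25 of 49 tested, held genes that rose and genes that fell in the knockout lines. The knockout counts of this and the following lists stand beside 6.13% of all tested genes higher and 5.77% lower in YAPKO1, and 14.0% and 13% in YAPKO2. Their trametinib counts stand beside 2.26% higher and 2.91% lower in sgCON, 3.97% and 3.85% in YAPKO1, and 8.55% and 11.4% in YAPKO2. A list whose share is near these is not set apart by its count. In YAPKO1, 1 was higher and 8 lower, and in YAPKO2, 3 were higher and 9 lower than in sgCON, with medians of −0.26 and −0.24. MATN2, a filament-forming matrilin, fell from 8.71 ± 0.396 FPKM in sgCON to 2.22 ± 0.345 in YAPKO1 and 0.409 ± 0.253 in YAPKO2 (SD, n = 3; log2 changes −1.76 ± 0.20 and −3.37 ± 0.20, adjusted p = 1.4e-05 and 2.21e-09). MGP, an inhibitor of calcification, was lower in both (−2.08 ± 0.35 and −1.52 ± 0.35, adjusted p = 0.000627 and 0.00402). CYR61, a secreted integrin ligand and a textbook YAP target, fell in both (−0.71 ± 0.23 and −1.48 ± 0.23, adjusted p = 0.0475 and 0.000124), and ECM1 did too (−0.93 ± 0.25 and −1.94 ± 0.25, adjusted p = 0.0197 and 2e-05). LTBP1, which anchors latent TGF-beta to microfibrils, was lower in both as well (−0.97 ± 0.13 and −0.71 ± 0.13, adjusted p = 4.8e-05 and 0.00053). MFAP4, a microfibril-associated protein, rose instead (1.88 ± 0.19 and 1.15 ± 0.19, adjusted p = 4.41e-06 and 0.000342). The trametinib counts were 2 higher and 2 lower in sgCON, 4 and 2 in YAPKO1, and 5 and 5 in YAPKO2. MFAP4 rose with trametinib in all 3 lines (1.67, 2.10 and 2.23, each ± 0.19), while MGP fell in sgCON (−1.24 ± 0.35, adjusted p = 0.0467) and rose in YAPKO2 (1.83 ± 0.35, adjusted p = 0.00116). That difference in response was itself called, at 3.07 ± 0.49 (adjusted p = 0.00115).

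Receptors of the members, 15 of 19 of which were tested, included genes that moved in both directions. CD36, a receptor for thrombospondin-1, fell from 20.8 ± 2.94 FPKM in sgCON to 1.24 ± 0.381 in YAPKO1 and 0.182 ± 0.129 in YAPKO2 (SD, n = 3; log2 changes −3.63 ± 0.22 and −4.97 ± 0.22, adjusted p = 6.45e-09 and 3.19e-11). SDC2, a heparan sulphate proteoglycan that binds fibronectin, rose from 0.680 ± 0.299 to 52.4 ± 9.16 and 11.6 ± 1.46 (5.50 ± 0.24 and 3.38 ± 0.24, adjusted p = 1.27e-10 and 2.17e-08). ITGA9, the integrin subunit that binds tenascin-C, rose in both (1.77 ± 0.17 and 2.07 ± 0.17, adjusted p = 1.41e-06 and 7.53e-08). It was lower in sgCON than in the parental line (−2.27 ± 0.17, adjusted p = 1.1e-07), at 0.247 ± 0.206 against 3.02 ± 0.174. ITGB8 fell in both (−0.87 ± 0.17 and −1.53 ± 0.17, adjusted p = 0.00225 and 3.4e-06), and ITGAV, the subunit that pairs with it, fell in YAPKO2 (−1.65 ± 0.34, adjusted p = 0.00164). In all, YAPKO1 had 2 receptors higher and 2 lower, and for YAPKO2 the counts were 2, near the share of all tested genes, and 4, with medians of −0.31 and −0.41. With trametinib none was higher in any line, and 3 were lower in sgCON, 2 in YAPKO1 and 4 in YAPKO2. CD36, ITGB8 and ITGA5 were the 3 in sgCON, at −2.45 ± 0.22, −1.41 ± 0.17 and −1.34 ± 0.19 (adjusted p = 1.62e-06, 4.85e-05 and 0.000264).

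Among 11 of 14 matrix crosslinking and processing genes tested, 2 were higher in YAPKO1, the collagen hydroxylase PLOD1 and the procollagen protease BMP1 (0.64 ± 0.17 and 0.48 ± 0.13, adjusted p = 0.0219 and 0.0256), and limma called none in YAPKO2, where 4 had an unadjusted p under 0.05. With trametinib limma called none in sgCON or YAPKO1 (2 and 1 at an unadjusted p under 0.05), and 2 were higher and 1 lower in YAPKO2, with medians of 0.02, 0.12 and 0.16. Of 12 of 18 matrix proteases and inhibitors tested, YAPKO1 had 2 higher and 1 lower, and for YAPKO2 the counts were 2 and 5 (medians −0.06 and −0.34). MMP15, a membrane-bound metalloproteinase, rose in both (1.57 ± 0.20 and 2.53 ± 0.20, adjusted p = 3.73e-05 and 5.63e-08). With trametinib the protease list gave 1 higher and 1 lower in sgCON, 1 and 3 in YAPKO1, and 2 and 4 in YAPKO2, and MMP15 was higher in each line (0.96, 0.97 and 1.0, each ± 0.20).

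The TGF-beta list, 14 of 18 tested, gave 2 higher and 1 lower for YAPKO1, with 2 in each direction for YAPKO2, near the 14.0% and 13% of all tested genes, and medians of −0.07 and −0.03. The inhibitory SMAD6 and SMAD7 were the higher genes in both lines: SMAD6 by 0.89 ± 0.13 and 0.60 ± 0.13 (adjusted p = 0.000117 and 0.00202), and SMAD7 by 0.40 ± 0.12 and 0.52 ± 0.12 (adjusted p = 0.0373 and 0.00446). LTBP1, which is also in the list of other matrix glycoproteins, was lower in both. Trametinib gave 2 higher and 0 lower in sgCON, 3 and 0 in YAPKO1, and 4 and 1 in YAPKO2, and SMAD6 and SMAD7 were among the higher genes in each line. The sgCON line had none higher and 6 lower than the parental line in this list, beside 7.93% and 7.82% of all tested genes. The lower genes were led by TGFB3 and SMAD7 (−2.39 ± 0.18 and −1.31 ± 0.12, adjusted p = 1.55e-07 and 1.2e-06) and by TGFBR2, the ligand-binding receptor (−1.30 ± 0.13, adjusted p = 2.49e-06).

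Marker lists moved beside these genes. Of the tested fibroblast markers, 3 were higher and 3 lower in YAPKO1, and likewise in YAPKO2. DCN, a collagen-binding proteoglycan, was 198 to 218 FPKM in YAPKO2 with DMSO against 12.0 to 15.8 in sgCON, whereas COL3A1 was 22.6 to 26.4 against 92.3 to 101. The adrenergic list gave 5 higher and 1 lower for YAPKO1, 5 higher and 0 lower for YAPKO2 (6 at an unadjusted p under 0.05), and the mesenchymal-state list, which contains YAP1, had 3 higher and 1 lower, then 1 higher and 4 lower. In the adrenergic list DBH did not exceed 0.591 FPKM in the parental and sgCON libraries and passed the filter only through knockout libraries. In the mesenchymal-state list PRRX1 did not exceed 0.548 outside YAPKO1 and passed only through YAPKO1 libraries. The filter thus favoured higher calls of these genes there. The Schwann cell list, with 4 of 8 tested, gave 0 calls by limma in YAPKO1 (2 at an unadjusted p under 0.05) and 2 higher and 1 lower in YAPKO2. Its markers SOX10 and FOXD3 did not exceed 0.334 and 0.125 FPKM in any library. The epithelial list, 3 of 7 tested, had 2 lower in each knockout line, with EPCAM at no more than 0.218. KRT18, a keratin, was 2.57 to 3.16 FPKM in the parental line, 14.4 to 15.7 in sgCON with DMSO, 1.28 to 3.03 in YAPKO1 and 0.562 to 0.730 in YAPKO2, and KRT8 was 1.57 to 2.06 in sgCON. Their part in the results was not tested. In the blood and endothelial list only CD68 was tested, and it was lower in each. CD68 held at least 1 FPKM in every library of the parental line and sgCON with DMSO but of no other group. The filter thus favoured these lower calls. PTPRC did not exceed 0.284, and HBB was listed at 0 throughout.

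The genes with the pattern most like 3 of the members were found from the root mean square difference between centred log2 values over the 21 libraries, among 11881 protein-coding genes. For POSTN they were CAVIN1, a coat protein of caveolae, at 0.77, CD36 at 0.78 and MAOB, a monoamine oxidase, at 1.01, where POSTN itself varied by 2.33 around its mean. CAVIN1 ran from 23.7 ± 1.15 FPKM in the parental line and 8.04 ± 0.901 in sgCON to no more than 0.0467 on average in any knockout group. MAOB was 38.3 ± 1.02 in the parental line, 21.8 ± 0.661 in sgCON with DMSO and 3.68 ± 0.884 in sgCON with trametinib (SD, n = 3).
For TGFBI the closest were CD68, a lysosomal protein, at 0.47, TNFRSF12A, the receptor for TWEAK, at 0.49 and FLT1, a VEGF receptor, at 0.54, beside its own variation of 1.43. TNFRSF12A was 23.2 ± 3.37 FPKM in the parental line, 9.60 ± 0.917 in sgCON with DMSO and 2.00 ± 0.293 with trametinib. For FBN1 they were COL6A3, a chain of type VI collagen and one of the fibroblast markers above, at 0.31, SP140L at 0.38 and SUSD5 at 0.40, beside 1.19. COL6A3 was 41.1 ± 6.07 in the parental line, 18.7 ± 1.33 in sgCON with DMSO, 9.30 ± 0.232 in YAPKO1 with DMSO and 4.95 ± 0.732 in YAPKO2 with DMSO. These distances are descriptions over libraries that share groups, depth and composition.

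**Figure D4:**
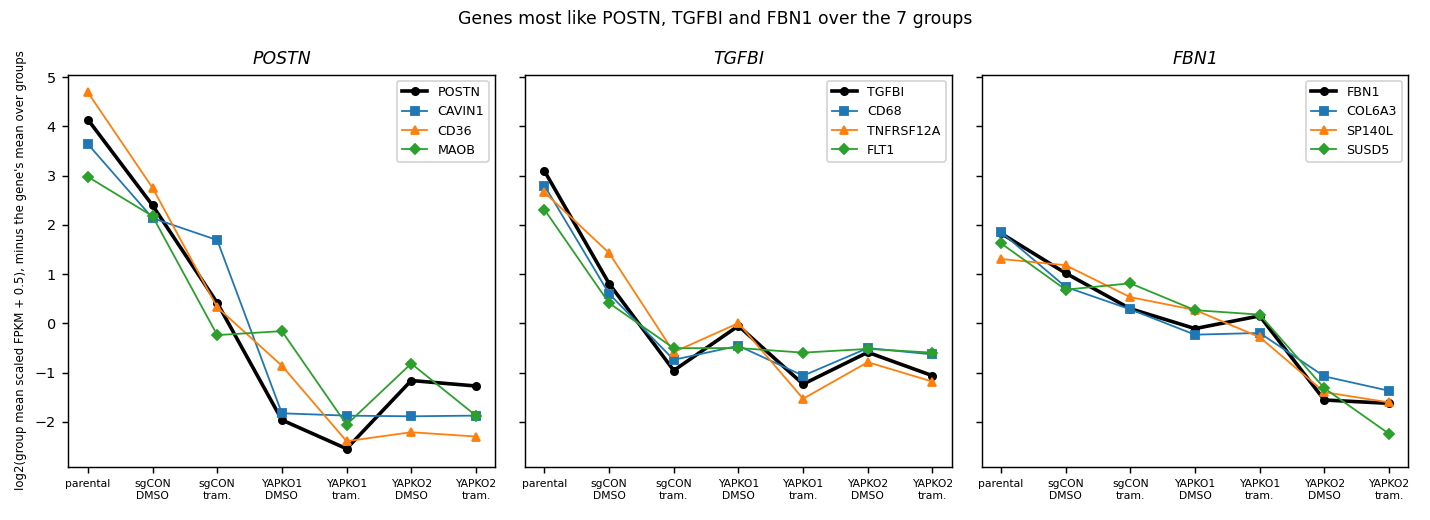
Group means as log2(scaled FPKM + 0.5), each gene centred on its mean over the 7 groups (vertical axis), for POSTN, TGFBI and FBN1 (black) and the 3 genes most like each. All 12 lines are highest in the parental line, and FBN1 and COL6A3, 0.31 apart by the measure over libraries, follow each other closely.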

How the data were processed

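RNA of 21 NLF libraries, 3 in each of 7 groups, was analysed from gene tables deposited by the authors. The values are FPKM that the authors deposited in 2 forms, uncalibrated and calibrated, the second being the first multiplied by 1 factor per library (0.927 to 1.07), and how the factor was set is not given in the sources used here. STAR 2.4.2, RSEM 1.3.0 and hg19 are named, per the submitters' processing notes. Libraries were stranded total RNA with ribosomal RNA removed, per the labels' protocols. Read counts were not used here, so depth is known only relative to the first parental library (0.761 to 1.66), read from the steps between low FPKM values, and no counting interval is given.

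Calibrated FPKM were divided by a median-ratio scaling factor per library (0.93 to 1.11), computed over 15700 genes above 0 in every library. Testing was limited to genes whose uncalibrated FPKM reached 1 in 3 or more libraries. From the deposited FPKM, log2(scaled FPKM + 0.5) was fitted with limma 3.58.1 (R 4.3.3), with 1 mean for each of the 7 groups so that they share 1 estimate of the spread, and a mean-variance trend. The 13 comparisons were two-sided contrasts of this fit, and p-values were adjusted by Benjamini-Hochberg over all 16194 genes of each, with calls at an adjusted p under 0.05. Fold changes are ratios of group means of scaled FPKM. The model script was tested on simulated data.

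The 10 genes were taken by symbol. Also named are YAP1, up to 4 called genes of largest change per gene list and comparison (CYR61, ECM1, LTBP1, MFAP4 and ITGB8 are given in both knockout lines for completeness, as are marker genes), and for POSTN, TGFBI and FBN1 the 3 protein-coding genes of most similar pattern. The lists were other matrix glycoproteins, receptors of the members, matrix crosslinking and processing, matrix proteases and inhibitors, the TGF-beta pathway, and markers of adrenergic and mesenchymal neuroblastoma states, fibroblasts, Schwann cells, epithelium, and blood and endothelium. Of the listed markers, 1 had no entry in the tables used. Some genes of these lists are not reported here by name. The members and lists were chosen with earlier results of these data known.

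GC content of transcripts came from GENCODE 29 and covered 96.4% of tested genes. Alternatives were a pseudocount of 0.1 or 1, no filter, no scaling, the calibration alone, quantile normalization, a fit of only the groups compared, a replicate block, a GC correction (a spline with 5 degrees of freedom per library), leaving out each library, and leaving out 3 libraries with a high GC trend. Guide positions and promoters are in GRCh38, the files in hg19, and no coordinate was converted.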

Additional observations from a re-analysis of the deposited data

Results flagged for a closer look

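In the fit of all 21 libraries, the response to trametinib was called different between YAPKO2 and sgCON in 5 of the genes, by a direct test of that difference in limma with 3 libraries in each of the 4 groups. On the log2 scale the YAPKO2 response minus the sgCON response was −0.79 ± 0.13 (SE) for FN1 (adjusted p = 0.0014), which rose in sgCON and fell in YAPKO2. It was 0.65 ± 0.16 for SPARC (adjusted p = 0.0264), which rose only in YAPKO2 by the test within each line. For FBN2 it was −0.65 ± 0.17 (adjusted p = 0.0319), although neither line's own response passed. POSTN gave 1.80 ± 0.48 (adjusted p = 0.0379) and TGFBI 1.33 ± 0.37 (adjusted p = 0.0477). In YAPKO2 with DMSO these last 2 genes were at 0.780 to 1.93 and 0.135 to 0.570 FPKM. Only FN1 kept its call without any 1 of the 12 libraries, and a fit of only the 4 groups compared called 1 of the 5, FN1.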

How the results depend on the processing

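Of 61 called results on the 9 tested genes, 39 kept their call under every alternative run, and over 1056 alternative values 914 kept the call, 142 lost it and 0 changed direction. Fits of only the groups compared lost the most calls, 15 of 61. They called 3 genes in YAPKO1 against sgCON in DMSO (6 in the shared fit), 1 for trametinib in YAPKO1 (3), 0 for trametinib in YAPKO2 (2, with limma in both and 2 at an unadjusted p under 0.05), 2 for YAPKO2 against YAPKO1 (5) and 1 for the response difference of YAPKO2 (5). That last count of 5 was also 3 with a pseudocount of 0.1, without the filter, without scaling or without the 3 libraries of high GC trend, and 2 with the calibration alone. Leaving out 1 library at a time gave 1 to 4 there, 2 to 4 for trametinib in sgCON (2 without sgCON trametinib library 2) and 1 to 3 for trametinib in YAPKO1 (1 without YAPKO1 DMSO library 2). GC correction, with or without the block, called 1 gene for the response difference of YAPKO1 (0 without it). Over all comparisons GC correction lost 5 calls and added 11. The cause of these changes was not tested.

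Replicate numbers did not pair the samples: correlations of same-numbered deviations ran from −0.14 to 0.36, and no comparison had every pair above 0.1. With the replicate block the response difference of YAPKO2 had 1 call, FN1, at −0.79 (adjusted p = 0.00449). The block changed no other call among the 61 apart from the 4 lost there.

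Over all tested genes, fitting only the groups compared moved the calls from 1927 to 737 in YAPKO1 with DMSO, 837 to 2387 for trametinib in sgCON, 1267 to 198 in YAPKO1 and 3228 to 695 in YAPKO2. It moved them from 5849 to 2584 for YAPKO2 under trametinib, 40 to 8 and 783 to 444 for the response differences, 2550 to 4686 for sgCON against parental, 4393 to 2728 for YAPKO1 against parental and 1122 to 305 between the knockout lines. GC correction gave 2998, 1631, 2347, 153, 1685, 3946 and 1859 in YAPKO1 with DMSO, trametinib in sgCON and YAPKO1, both response differences, sgCON against parental and between the knockout lines. GC correction with the block gave 1472 and 2145 for trametinib in sgCON and YAPKO1, 114 and 1515 for the response differences and 1688 between the knockout lines. The 40 calls of the YAPKO1 response difference were 24 with a pseudocount of 0.1, 23 with the calibration alone, 18 with the block and 74 without the 3 libraries of high GC trend, which gave 2996 for trametinib in YAPKO1. Leaving out 1 library lowered counts to as few as 1226 in YAPKO1 with DMSO, 2572 in YAPKO2 with DMSO (without YAPKO2 DMSO library 2), 482 and 744 for trametinib in sgCON and YAPKO1, 1429 for YAPKO1 under trametinib, 12 and 510 for the response differences and 1699 for sgCON against parental. Depth per library is not known in reads, so the precision of the lowest values, TGFBI and THBS1, could not be given.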
